A study of Mus musculus with 28 samples.

Results

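The H3K27ac landscape of untreated NMuMG cells (0h) was described from the regions called in all 3 libraries of that condition. NMuMG cells are a mouse mammary gland epithelial line that is not transformed, and the subclone NMuMG/E9 was used throughout. The study followed these cells through the epithelial to mesenchymal transition (EMT) that TGF-β induces, and profiled H3K27ac by ChIP-seq with the antibody ab4729 in 15 libraries, 3 for each of 5 conditions. The 0h cells received neither TGF-β nor inhibitor. The 12 treated libraries, 3 in each group, came from cells given TGF-β at 2 ng/ml for 4h or 24h with DMSO, or for 4h or 24h with the MEK inhibitor UO126 at 25 µM added 30 min before (ERKi). Of 60384 regions with a peak in any 0h library, 37432, or 62%, were called in all 3 and are referred to as shared regions. Merging the peaks of all 15 libraries gave 89050 regions. The shared regions were chosen by the calls alone. Their rank within each list by -log10 p, their width and their nearest protein-coding genes are described without a comparison between conditions. Which of them the treated libraries also called is given as shares and counts, without a test. Because the cells are 1 subclone and nothing in the sources used here says whether the 3 samples came from separate cultures, the SD values give the spread between these 3 libraries, which may be technical.

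H3K27ac, the acetylation of a lysine in the tail of histone H3, marks promoters and enhancers that are in use. At promoters it flanks the start site of transcription, and at enhancers it lies on the nucleosomes around the site where transcription factors bind, often far from the gene. Mammary epithelial cells are held together by E-cadherin (Cdh1) and by tight junctions, and carry simple keratins such as Krt8 and Krt18. AP-1, a dimer of Fos and Jun proteins, is a common occupant of epithelial enhancers, and TEAD, GRHL, ETS and RUNX factors are also known to act there.

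The sequences of some distal regions are given first, as examples. The calls that chose the shared regions did not use AP-1 letters, but the printed windows were picked because they held a match. A distal region is one that overlaps no promoter, taken from 1000 bp upstream to 100 bp downstream of any transcription start site. For each of 6 genes, chosen as genes named in the lists or near many distal regions, the window of 200 bp around the AP-1 match is printed for the highest ranked region that held 1 outside exons. The sequences are from the NCBIM37 (mm9) assembly, plus strand, and capitals mark the AP-1 letters TGANTCA, which read alike on both strands. The letters searched for TEAD (GGAATG), RUNX (TGTGGTT), GRHL (AACNNGTT) and ETS (CCGGAAG) occurred in none of these windows on either strand. A match describes the letters and does not show that the factor was bound.

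The Cdh1 window, chr8:109164342-109164541, lay in an intron 36755 bp downstream of the start site, and the Grhl2 window, chr15:37065452-37065651, lay at -97433 bp from the start site of the gene, where negative distances are upstream. The Runx1 window, chr16:92621080-92621279, lay in an intron and held 2 matches, as did the Klf6 window, chr13:5844423-5844622, in intergenic sequence. The Myc window was chr15:61285795-61285994 and the Ctgf window chr10:24348962-24349161, both intergenic.
Cdh1: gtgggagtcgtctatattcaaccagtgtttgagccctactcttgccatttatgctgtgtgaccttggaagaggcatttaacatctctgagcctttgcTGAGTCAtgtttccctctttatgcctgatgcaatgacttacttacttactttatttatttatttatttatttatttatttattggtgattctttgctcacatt
Grhl2: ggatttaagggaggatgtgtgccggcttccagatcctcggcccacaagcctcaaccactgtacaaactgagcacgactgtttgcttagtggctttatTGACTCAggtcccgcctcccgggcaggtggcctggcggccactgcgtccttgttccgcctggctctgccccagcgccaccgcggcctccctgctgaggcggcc
Runx1: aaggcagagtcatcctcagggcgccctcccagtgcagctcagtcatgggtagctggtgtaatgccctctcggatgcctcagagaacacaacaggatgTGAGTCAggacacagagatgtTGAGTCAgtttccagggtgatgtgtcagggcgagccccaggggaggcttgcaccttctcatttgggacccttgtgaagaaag
Ctgf: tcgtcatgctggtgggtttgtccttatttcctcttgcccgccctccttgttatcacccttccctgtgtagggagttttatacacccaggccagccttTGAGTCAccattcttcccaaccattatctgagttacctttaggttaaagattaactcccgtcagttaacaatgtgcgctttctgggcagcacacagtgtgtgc
Myc: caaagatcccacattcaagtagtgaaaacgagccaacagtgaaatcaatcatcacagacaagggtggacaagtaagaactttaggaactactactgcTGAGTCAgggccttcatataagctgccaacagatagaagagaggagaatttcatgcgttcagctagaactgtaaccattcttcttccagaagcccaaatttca
Klf6: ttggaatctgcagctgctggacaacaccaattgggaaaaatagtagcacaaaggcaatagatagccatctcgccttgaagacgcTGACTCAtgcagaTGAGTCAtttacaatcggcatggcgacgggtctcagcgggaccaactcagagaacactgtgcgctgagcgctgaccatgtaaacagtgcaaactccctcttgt

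The region near Grhl2, a regulator of epithelial genes, was at percentile 93.5, 97.8 and 99.1 of its list in replicates 1, 2 and 3 (0 for no peak, 100 for the highest -log10 p), and its AP-1 match was 182 to 194 bp from the summits. The Runx1 region stood at 94.3, 95.6 and 98.2 with the match 308 to 364 bp away. The Cdh1 region stood at 78.03, 83.41 and 86.6, with the match at -356 to -290 bp, left of the summits. In the region near Myc the summit itself moved, and the match was 145 and 28 bp to the right of it in replicates 1 and 2 and at -124 bp in replicate 3. In the Ctgf region the match was at -251 bp in replicate 1 and at 263 and 306 bp in replicates 2 and 3, and in the Klf6 region it was at -315, -253 and -271 bp. Each of these 6 regions also held a peak in all 12 treated libraries. So did 65.0% of all shared distal regions, and 99.15 to 99.97% of shared regions in the eighth to the highest decile by mean percentile.

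Promoter sequences are shown for 4 genes, as the 200 bp upstream of the annotated gene start on the strand of the gene. Capitals mark the E-box CAGGTG that ZEB and SNAI repressors recognise, the KLF/SP GC box GGGCGG and the TEAD letters GGAATG, on either strand. The Cdh1 window is chr8:109127051-109127250 on the plus strand. The other windows are on the minus strand, at chr19:36194335-36194534 for Ankrd1, chr3:145312950-145313149 for Cyr61 and chr10:117147815-117148014 for Mdm2.
Cdh1 promoter: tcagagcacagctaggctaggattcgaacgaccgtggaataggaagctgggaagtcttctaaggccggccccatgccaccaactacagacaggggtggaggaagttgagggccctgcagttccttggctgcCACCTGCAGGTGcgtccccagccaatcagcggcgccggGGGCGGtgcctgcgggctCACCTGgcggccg
Ankrd1 promoter: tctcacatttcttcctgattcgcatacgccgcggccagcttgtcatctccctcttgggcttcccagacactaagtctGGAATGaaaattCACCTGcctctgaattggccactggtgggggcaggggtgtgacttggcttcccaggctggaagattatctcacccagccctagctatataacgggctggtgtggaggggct
Cyr61 promoter: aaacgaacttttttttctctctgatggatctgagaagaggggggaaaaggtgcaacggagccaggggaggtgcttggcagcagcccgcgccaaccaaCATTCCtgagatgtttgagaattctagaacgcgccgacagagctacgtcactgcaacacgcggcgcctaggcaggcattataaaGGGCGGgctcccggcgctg
Mdm2 promoter: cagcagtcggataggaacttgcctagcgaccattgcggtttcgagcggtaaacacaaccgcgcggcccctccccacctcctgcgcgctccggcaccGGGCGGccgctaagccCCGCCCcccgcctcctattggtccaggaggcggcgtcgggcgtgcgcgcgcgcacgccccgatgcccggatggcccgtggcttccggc

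The Cdh1 window held 3 E-box matches, of which a pair adjoin as a palindrome, and 1 GC box. Ankrd1 and Cyr61, textbook targets of YAP and TEAD, each held 1 TEAD match, and Mdm2 held 2 GC boxes. Over the same 200 bp upstream of all protein-coding genes, 13.7% held the E-box, 38.0% the GC box and 8.98% the TEAD letters. All 4 promoters carried a shared region. The percentile of the Cdh1 promoter was 78.3, 80.8 and 72.8, that of Ankrd1 72.4, 86.3 and 88.1, and that of Cyr61 78.01, 44.76 and 72.65. Cyr61 thus stood lower in replicate 2 than in the others.

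The lists of replicates 1, 2 and 3 held 52221, 53603 and 59658 peaks, of which 75.6, 88.5 and 77.8% fell in shared regions. A further 8644 regions were called in 2 libraries and 14308 in 1. The median -log10 p of a list was 19.29, 14.01 and 15.25, and the median number of fragments at the summit, solved from the fold enrichment and the p value, was 57, 41 and 43. The lists give no read totals, so depth is unknown and no counting interval can be given, and the number of libraries limits the precision. Peaks in shared regions had a median fold enrichment of 5.33, 4.61 and 5.05 over the local background, against 3.48, 3.47 and 3.61 for the other peaks. Shared regions ranked alike in the 3 libraries, with Spearman's rho by -log10 p of 0.904 for replicates 1 and 2, 0.899 for 1 and 3 and 0.889 for 2 and 3. These coefficients are across 37432 regions, which share libraries and local background and are not independent. In a library that took no part in the choice, the 1000 regions highest in the other 2 were all called, at a median percentile of 98.8, 99.0 and 99.0 in replicates 1, 2 and 3.

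Promoters were the class of the genome in which shared summits were most concentrated. Summits fell in promoters for 21.3, 21.6 and 22.4% of the shared regions in replicates 1, 2 and 3 (mean 21.8% ± 0.58, SD, n = 3), and promoters make up 2.38% of the genome. For introns the share of summits was 37.7% ± 0.628, with 35.8% of the bases of the genome, and for intergenic sequence it was 32.1% ± 0.0214, with 59.04%. UTRs took 3.60% of the summits against 1.18% of all bases, and other exons 4.80% against 1.66%. Each of these differences from the genome share was larger than the spread between the libraries. Regions called in 1 library had 6.92% of their summits in promoters and 47.2% in introns. Counted by any overlap rather than by the summit, 13861 shared regions touched a promoter and 23571 were distal.

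The peaks of promoter-overlapping regions covered a median of 1062, 916 and 834 bp in replicates 1, 2 and 3, and those of distal regions 807, 583 and 722 bp. Promoter regions were thus wider in each library, by the most in replicate 2. Their median percentile by -log10 p was 83.6, 83.7 and 83.0, against 53.46, 50.03 and 57.39 for distal regions, and their median fold enrichment 7.43, 7.05 and 7.87 against 4.90, 4.49 and 4.94. Width and rank were related only in part, with Spearman's rho between -log10 p and covered bases of 0.629, 0.711 and 0.603 across the regions of each library. Regions covering over 2000 bp were 3.57, 1.44 and 1.97% of the shared regions, and the longest spanned 4045 bp.

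**Figure D1:**
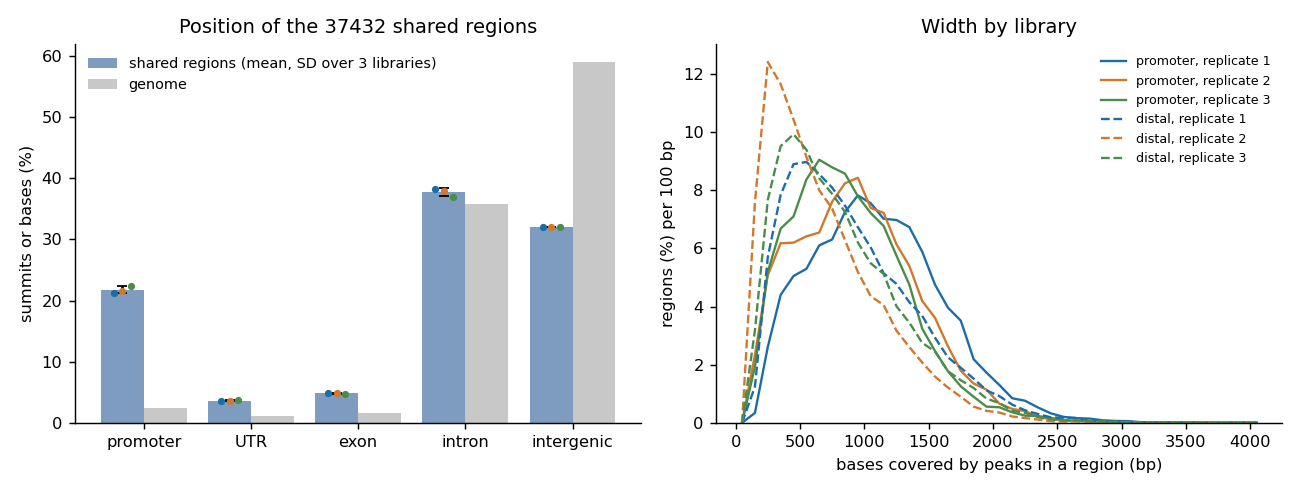
Left, percent of shared-region summits in each class of the genome (bars, mean; error bars, SD over 3 libraries; points, replicates 1 to 3) beside the percent of genome bases. Right, percent of regions per 100 bp of covered width for promoter-overlapping (solid) and distal (dashed) regions in each library. The promoter bar stands at 21.8% beside 2.38% of bases, and the distal curve of replicate 2 lies furthest to the left, with a median of 583 bp.

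The shared regions with the highest -log10 p were not the widest. The region over Gm10800 on chromosome 2 was the highest of all 3 lists, with -log10 p of 7331, 37311 and 7122, and replicate 2 stood far above the others there. Of the 30-base stretches in that region, 64.1% occur more than once in the assembly. The promoter of Mdm2, the ubiquitin ligase that degrades p53, came next at places 2, 4 and 2, and its region contained no repeated 30-base stretch. It was followed by a region at -35532 bp from Pak3, the start of Nup107 (a nuclear pore protein), Rap1b (a small GTPase), an intronic region near Chl1, and the start of Ermp1 on chromosome 19. Places 8 to 10 were a region upstream of Gm5614, a region at -14171 bp from Pax2 and the start of Pgam1, a glycolytic enzyme. The regions near Pak3, Chl1 and Gm5614 were short, covering 296, 368 and 502 bp on average, had fold enrichments between 33.0 and 64.4, and had 14.7, 34.1 and 35.2% of their 30-base stretches repeated. All 10 held a peak in all 12 treated libraries, as did 99.97% of the shared regions in the highest decile by mean percentile.

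The Mdm2 promoter ranked far higher by -log10 p than by fold enrichment. The summit pileup, which was worked out from the p value and the fold and is no separate measurement, was 10387, 6190 and 6660 fragments, while the fold enrichment was 10.7, 11.1 and 12.9, which placed the region 3100th, 1878th and 1871st by fold. Within 200 kb of the Mdm2 start lay 31 shared regions, 8 of them among the 100 highest by -log10 p. Besides the Mdm2 promoter, they included the promoters of Rap1b (-log10 p 1936, 1385 and 1514), Nup107 (2666, 1414 and 1418), Slc35e3 (745, 233 and 351) and Cpm (1306, 749 and 939), and a region at -7392 bp from Mdm2 (1679, 769 and 995). Of the 15 shared regions between 200 and 600 kb away, none was among the 100 highest. Among them the promoter of Yeats4 had the higher fold enrichment, 15.7, 17.9 and 22.2, with -log10 p of 198, 153 and 182. The median percentile by pileup was 72.5, 85.8 and 80.2 within 200 kb and 50.8, 71.5 and 48.6 further out, whereas by fold it was 59.2, 38.1 and 54.7 against 50.8, 39.0 and 46.7.

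**Figure D2:**
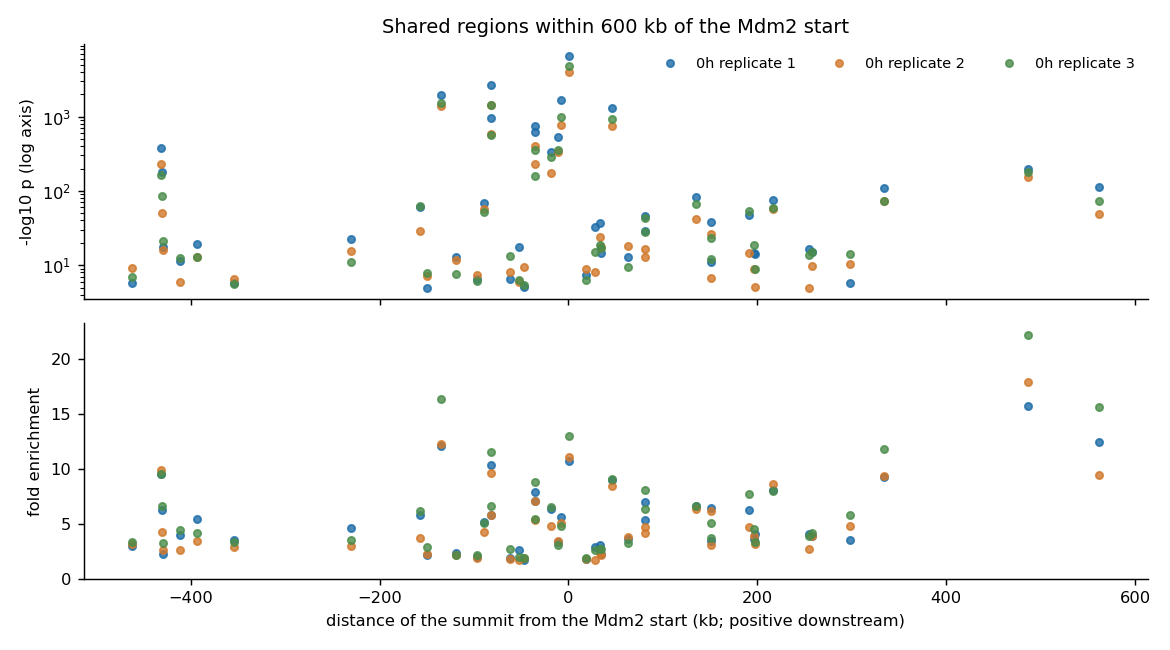
Each shared region within 600 kb of the Mdm2 start, by the distance of its summit in kb, with -log10 p on a log axis (top) and fold enrichment (bottom) in the 3 libraries. The regions with -log10 p above 1000 lie near Mdm2, Nup107, Rap1b and Cpm, while the highest fold enrichment in the plot, 15.7 to 22.2, belongs to the Yeats4 promoter.

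The high ranks were gathered in a few stretches of the genome. Chromosome 19 held 3.86% of the shared regions and 60 of the 100 highest, and 10 stretches of 1 Mb on chromosomes 5, 10 and 19, with 1.11% of the shared regions, held 75 of the 100. The stretch between 29 and 30 Mb of chromosome 19 held 21, near genes that include Ermp1, Jak2 (a cytokine receptor kinase), Ak3, Rcl1 and Il33. There the median percentile of the 65 shared regions was 99.6, 99.4 and 99.6 by pileup and 69.0, 59.8 and 69.8 by fold enrichment, and their local background was 4.87, 4.49 and 4.13 times the median of the library. The background, worked out from the p value and the fold, was not high in all 10 stretches. It was 1.53, 1.27 and 2.31 times the median between 5 and 6 Mb of chromosome 5 and 0.946, 1.08 and 1.08 times between 8 and 9 Mb, which held 4 and 3 of the 100 highest regions. Its part in the ranks was not tested. Most of the 30-base stretches were repeated in 7 of the 100 highest regions, and these 7 all lay outside the 10 stretches. Outside the stretches, and with at most 10% of the 30-base stretches repeated, a choice made after the data were seen, the highest regions were the promoters of Il33, an alarmin cytokine, of Dmtf1, a transcription factor of the p53 pathway, and of Cyp51, an enzyme of cholesterol synthesis. All 3 lie in the 1 Mb next to such a stretch, starting at positions 30019848 of chromosome 19 and 9160490 and 4103209 of chromosome 5, so that they count as outside through the fixed limits of the stretches. They ranked 25, 49 and 36, 48, 50 and 45, and 49, 74 and 51 in replicates 1, 2 and 3. The highest distal region by the same choice lay in an intron of Cdk5rap2, at ranks 113, 29 and 156.

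The widest regions were others. The widest of all lay at -13728 bp from Tnrc6a, a partner of Argonaute proteins, at chr7:130251064-130255108, and peaks covered 3945, 3039 and 3481 bp of it, yet its percentile by -log10 p was 68.0, 65.7 and 74.5. The next, over a Cdk6 promoter, covered 3558, 3307 and 3302 bp and was also high by -log10 p, at ranks 108, 98 and 86. Cdk6 is a cyclin-dependent kinase of the G1 phase, and this region lies in one of the stretches above. The region upstream of Pdgfb, a growth factor, covered 3581, 3086 and 3490 bp at percentiles of 75.3, 72.6 and 80.8. An intronic Glis3 region covered 3365, 3270 and 3220 bp, and a region over the Pdlim7 promoter 3452, 3076 and 2969 bp. The others were near Ncrna00085, Fez2, Galnt10, Pawr and Frmd8, with means between 2956 and 3071 bp. Among distal regions the widest 10 added Btg1, Thsd4 and Angpt2. None of the 10 widest was among the 10 highest by -log10 p, and the overlap was 5 of the 100 and 74 of the 1000 highest of each ranking.

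Distal regions lay a median of 22574 bp from the nearest protein-coding start site. Of the 23571, 28.7% were within 10 kb, 85.0% within 100 kb and 15.1% beyond, and 47.0% were inside the body of a protein-coding gene. At least 1 was nearest to 7442 of 22380 protein-coding genes, or 33.3%, and 43 genes had 20 or more. Most were assigned to Myc, the growth regulator, with 44 regions over the 1.44 Mb nearest to it, or 30.5 per Mb, against 8.88 per Mb over the genome. Its regions covered 44.0, 38.2 and 42.8 kb in replicates 1, 2 and 3 and lay up to 671818 bp away, 30 of them downstream. Glis3, a zinc finger factor, followed with 38, of which 24 were downstream of its start, and its promoter stood at 99.9 in each library. It lies in the stretch between 28 and 29 Mb of chromosome 19, where the local background was 3.23, 3.52 and 3.69 times the library median and the median percentile by fold 20.3, 11.9 and 16.4, and its count is 0 without the 10 stretches. Klf6, also a zinc finger factor, had 37, and its promoter stood at 70.2, 39.8 and 72.7.

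Cited2, a co-regulator that binds CBP, had 34 distal regions, and all of them lay upstream. Lpp, a protein of cell adhesion sites, also had 34. Tns3, a focal adhesion protein, had 33, and 3930402G23Rik 29 without a promoter peak in any library. Ankrd55 and Shroom3 had 27 each, and Oxr1 26. Per length of nearest sequence, Shroom3, which shapes epithelial cells through the apical actin, was the densest of these 10, with 83.3 per Mb. Its promoter stood at 83.4, 76.1 and 84.7. The promoter of Ankrd55 was without a peak in replicate 2 and at 29.1 and 20.1 in the others. A count by nearest start site follows both the amount of H3K27ac and the length of sequence nearest to a gene, and it does not show which gene a region acts on.

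A shared region lay over a promoter of 10784 of 22380 protein-coding genes, or 48.2%, and with promoters widened to 2500 bp on either side 51% of the genes had one. The share with a promoter peak was 49.5, 48.5 and 48.3% in replicates 1, 2 and 3. Gene lists chosen with earlier results of these data known were read against 48.2%. Housekeeping genes stood at 20 of 20, with a median promoter percentile of 90.8, from 62.5 for Pgk1 to 99.3 for Ywhaz. The lists of other cell types stood far lower at promoters. No promoter of 14 immune cell, 14 neural or 10 skeletal muscle markers carried a shared region or a peak in any 0h library, and Ptprc, Syp and Myod1 were among them. Of 13 endothelial markers 1 did, Flt1, a VEGF receptor, at 77.6, 75.3 and 71.0, while Pecam1 and Cdh5 did not. Of 10 adipocyte markers, Cebpa and Pnpla2 did, both of which are also used outside fat. Distal regions did not set these lists apart in the same way. At least 1 distal region was nearest to 10 of 13 endothelial, 7 of 10 adipocyte, 6 of 14 neural, 3 of 14 immune and 1 of 10 muscle markers, against 33.3% of all genes and 27 of 34 epithelial junction genes. Per length of nearest sequence, adipocyte markers had 38.6 per Mb and junction genes 34.9. The highest distal regions of these markers reached mean percentiles of 90.2 near Sox17, an endothelial factor with 6 regions, 89.2 near Snap25, a synaptic protein with 5, and 86.8 near Lep, the gene of leptin, with 6.

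**Figure D3:**
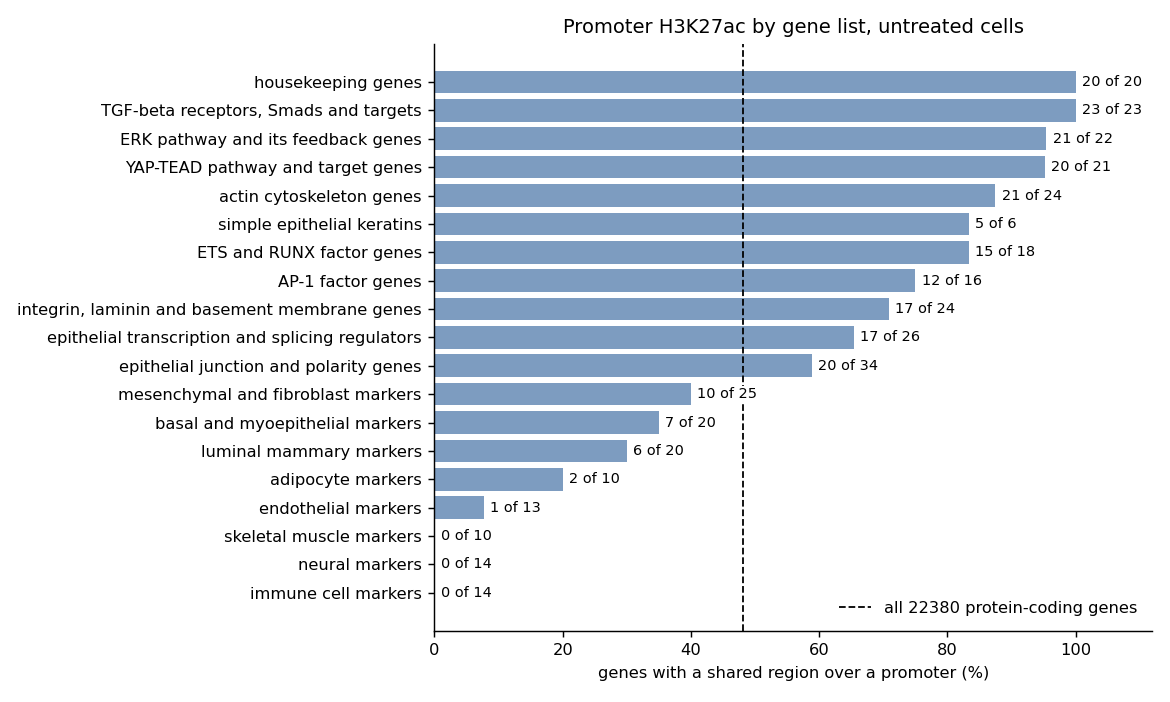
Percent of the genes of each list with a shared region over a promoter, with the counts at the end of each bar and the share of all 22380 protein-coding genes as a dashed line. Housekeeping and TGF-β genes stand at 20 of 20 and 23 of 23, and immune, neural and skeletal muscle markers at 0.

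Some epithelial genes carried H3K27ac at the promoter, at distal regions, or at neither. Of 34 epithelial junction and polarity genes, 20 had a shared promoter region, or 58.8%, against 48.2% of all genes. Prkci, the atypical protein kinase C of the polarity complex, stood at 97.2, 98.6 and 97.7. The polarity gene Pard3 stood at 93.1, 96.6 and 96.0 and Tjp1 (ZO-1) at 89.6, 93.8 and 96.4. Of the desmosome genes, Dsp stood at 84.3, 82.5 and 92.3 and Jup at 82.2, 74.3 and 85.2. The tight junction protein Ocln was lower, at 74.1, 69.0 and 61.9. In contrast, Epcam, Cldn1, Cldn3, Cldn4, Cldn7, Rab25 and St14 had no promoter peak in any of the 3 libraries. Of these genes, Cldn7 alone had a shared region within 2500 bp of a start site. Several of these had distal regions, as did markers of other cell types above, with 5 nearest to Epcam and 3 each to Cldn1, Cldn3 and Cldn4, the highest of them at a mean percentile of 83.3, 81.3, 68.1 and 68.1. Rab25, a GTPase of epithelial trafficking, had neither.

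Of 26 epithelial transcription and splicing regulators found in the annotation, 17 had a shared promoter region, against 48.2% of all genes. Hnf4a was highest, at 99.1, 93.3 and 97.2, followed by Prrg2, a membrane protein that the list holds although it is no regulator of transcription or splicing, at 91.9, 92.6 and 96.5. Sox9, which acts in epithelial progenitors and also in mesenchymal lineages, stood at 91.2, 95.6 and 93.5. Esrp2, which directs epithelial splicing, stood at 90.8, 83.9 and 89.0, and its relative Esrp1 had no promoter peak and no distal region. Likewise Elf3 stood at 86.0, 79.8 and 78.2 and Ehf at 87.7, 88.0 and 66.5, while Elf5, their relative of the secretory lineage, had none. Grhl2 stood at 70.4, 52.1 and 56.8, and Ovol1 and Ovol2 had no promoter peak in any library. The promoter of Klf5 was the least even, at 86.1, 0.806 and 90.4, so that the library decided its level. Sox9 had 19 distal regions and Klf4, Klf5 and Foxa2 had 16, 13 and 16.

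Of 6 simple keratins, 5 had a shared promoter region, Krt8 at 81.2, 75.0 and 81.0, Krt19 at 75.5, 71.2 and 66.2 and Krt7 at 45.55, 49.98 and 67.89. Krt20, at 37.2, 42.5 and 17.2, was the lowest of those with a promoter peak in each library. Krt18, the partner of Krt8, counted through a shared region that reached its promoter, but a peak lay over the promoter itself in replicate 3 alone, at 65.0. The 7 distal regions nearest to Krt18 reached a mean percentile of 88.4. Under the requirement that each library cover at least 50% of a region, the count was 2 of 6, and with peaks of at least 5-fold enrichment it was 0. The count over all genes under such alternatives is given as a range at the end of the report. The luminal and basal lists were below the share of all genes, 48.2%. Of 20 luminal markers 6 had a shared promoter region, which were Cd24a, Areg, Lcn2, Stat5a, Wnt4 and Mfge8. Areg, an EGF receptor ligand, stood at 90.8, 72.9 and 86.0. The hormone receptors Esr1, Pgr and Prlr and the milk proteins Csn2, Csn3, Wap and Lalba had no promoter peak in any library. Of 20 basal and myoepithelial markers 7 had one. Egfr stood at 94.5, 95.7 and 98.0, Itga6 at 91.6, 91.4 and 93.6 and Itgb4 at 77.9, 76.9 and 75.5, whereas the basal keratins Krt5 and Krt14, the basal factor Trp63 and the contractile genes Acta2, Myh11 and Cnn1 had none. Trp63 was nearest to 6 distal regions, up to a mean percentile of 83.0.

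Some mesenchymal genes carried H3K27ac at the promoter in the untreated state. Of 25 mesenchymal and fibroblast markers 10 had a shared promoter region, or 40%, again read against 48.2%. Cdh2 (N-cadherin) stood at 84.4, 81.5 and 92.7, Vim (vimentin) at 77.4, 74.8 and 82.8 and Fn1 (fibronectin) at 80.7, 80.7 and 77.0. The repressors of E-cadherin Zeb2 and Zeb1 stood at 85.2, 88.5 and 82.2 and at 77.4, 69.3 and 76.3. The values of Vim, Fn1 and Zeb1 overlapped those of the Cdh1 promoter, which were between 72.8 and 80.8, and those of Cdh2 and Zeb2 lay above them in each library. Snai1 was lower, at 31.1, 44.9 and 27.3, and Snai2, Twist1 and Twist2 had no promoter peak. Twist2 was nearest to 9 distal regions, up to a mean percentile of 91.1. Col1a2, Col3a1, Pdgfrb, Thy1 and Postn, which mark fibroblasts, had no promoter peak either, while Col1a1 stood at 76.5, 82.9 and 75.9. A percentile gives the place of a peak within its list and not an amount of RNA, and expression was not analysed here. In a population of cells, a mark in a part of the cells and a weak mark in all of them cannot be told apart.

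**Figure D4:**
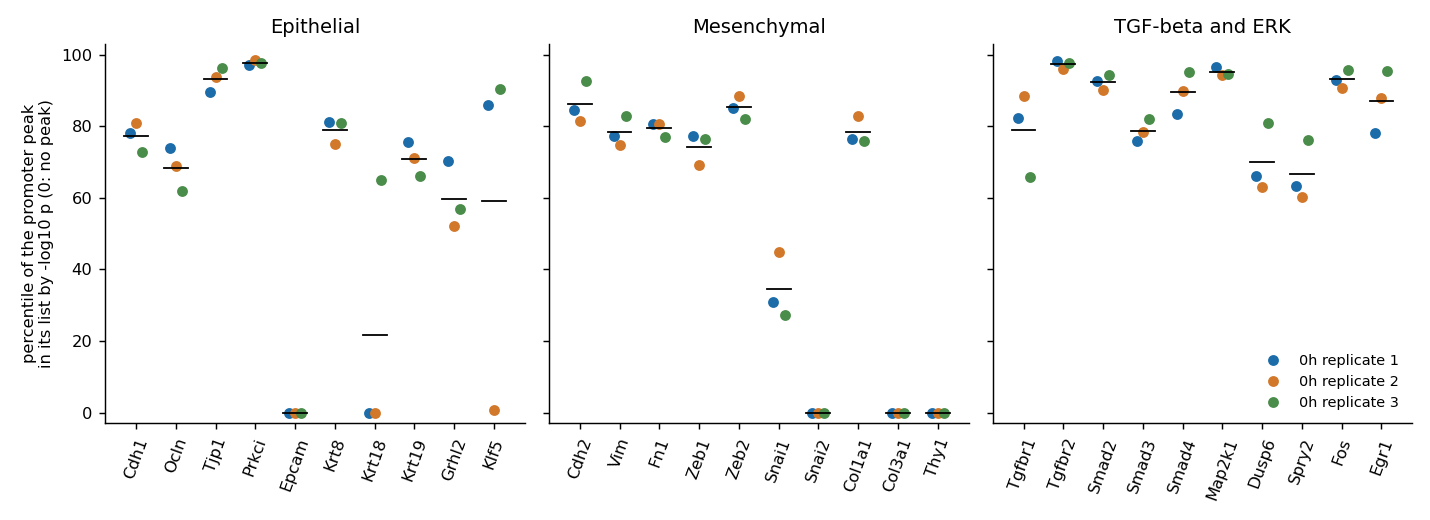
Percentile of the promoter peak by -log10 p in each 0h library (points) and the mean of the 3 (line) for selected genes of the epithelial, keratin, mesenchymal, TGF-β and ERK lists and for the AP-1 gene Fos, where 0 means that no peak lay over the promoter. Cdh1, Vim and Fn1 stand between 72.8 and 82.8, Epcam, Snai2, Col3a1 and Thy1 at 0, and Klf5 and Krt18 differ between the libraries.

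The genes of AP-1, ETS and RUNX factors were read in the same way, against 48.2% of all genes. Of 16 AP-1 factor genes 12 had a shared promoter region, and 14 had a shared region within 2500 bp of a start site, against 51% of all genes. Atf4, the effector of the stress response, stood at 98.7, 99.5 and 99.8, Maff at 97.0, 99.5 and 99.6 and Fos at 92.9, 90.8 and 95.6. Jun stood at 78.3, 84.1 and 89.4 and Junb at 57.9, 70.1 and 74.6. Fosl1, at 91.2 and 95.7 in replicates 1 and 2, had no peak over the promoter in replicate 3, and Fosb, at 87.9 and 84.3 in replicates 2 and 3, had none in replicate 1. Batf and Batf3, which act in immune cells, had none at all. Of 18 ETS and RUNX factor genes 15 had one, with Gabpa at 99.1, 98.9 and 98.7, Cbfb, the partner of RUNX proteins, at 98.9, 99.1 and 98.3, and Runx1 at 84.3, 83.6 and 94.3. Etv1, Fli1 and Runx3 had none. Runx1 and Ets2 were also near many distal regions, 22 and 21.

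Of 21 genes of the YAP-TEAD pathway and its targets 20 had a shared promoter region, against 48.2% of all genes. The kinases Stk3 and Lats1, which restrain YAP, stood at 99.2, 99.5 and 99.7 and at 94.8, 95.6 and 96.1. The coactivators Wwtr1 (TAZ) and Yap1 stood at 98.0, 98.7 and 99.1 and at 84.8, 86.2 and 92.4, and Tead1 at 97.7, 96.5 and 97.0. The target Ctgf, a matricellular protein, stood at 69.3, 33.8 and 49.9, below these pathway genes in each library. The angiomotins, which bind YAP, were also lower, with Amotl1 at 68.6, 57.2 and 59.6 and Amot at 54.2, 40.2 and 33.5. Distal regions lay nearest to Ctgf 14 times, and 9 of the 14 held the AP-1 letters, against 40.5% of all distal regions over their whole length. Axl, a receptor kinase of mesenchymal cells, was the member without a promoter peak, and it had 4 distal regions.

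Genes of the pathways that the study perturbs carried H3K27ac in untreated cells. All 23 genes of the TGF-β list had a shared promoter region, as did 20 of 20 housekeeping genes, against 48.2% of all protein-coding genes. The receptor Tgfbr2 stood at 98.2, 96.0 and 97.7, Tgfbr1 at 82.5, 88.5 and 65.8, and the signal transducers Smad2, Smad3 and Smad4 at 92.6, 90.1 and 94.5, at 75.9, 78.3 and 82.0 and at 83.4, 89.9 and 95.3. Skil, a corepressor of Smads, was the highest at 98.5, 99.5 and 99.5. Among the ligands, Tgfb1 stood at 74.0, 79.3 and 71.9 and Tgfb2 stood at 67.0, 63.0 and 66.0. The list had 171 distal regions, 22 nearest to the inhibitor Smad7, 21 each to Smad3 and Tgif1 and 16 to Tgfbr2. With peaks of at least 5-fold enrichment, 15 of the 23 promoters were called in all 3 libraries. The count over all genes under this setting lies within the range given at the end of the report.

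Of 22 genes of the ERK pathway 21 had a shared promoter region, against 48.2% of all genes. The receptor Erbb2 stood at 99.2, 98.8 and 98.7, the kinases Map2k2 (MEK2) at 98.4, 98.9 and 97.3 and Map2k1 (MEK1) at 96.7, 94.3 and 94.6. Among the feedback inhibitors, Spry1 stood at 98.8, 98.3 and 98.5 and Dusp1 at 88.7, 94.4 and 96.4. Dusp6, at 66.1, 62.9 and 81.0, and Spry2, at 63.5, 60.1 and 76.2, were lower than the kinases in each library. The immediate-early gene Egr1 stood at 78.0, 88.0 and 95.4. Ier2 had a promoter peak in replicates 1 and 3 alone, at 24.5 and 21.5, and a shared region within 2500 bp. Phlda1 was near 25 distal regions, the most of this list. With peaks of at least 5-fold enrichment the count was 13 of 22, to be read beside the range over all genes at the end of the report.

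Of 24 integrin, laminin and basement membrane genes 17 had a shared promoter region, against 48.2% of all genes. Itgb1, the common β subunit, stood at 97.6, 97.5 and 98.6 and Itgav at 95.5, 95.7 and 94.4. The collagen IV genes Col4a1 and Col4a2 lie head to head and had the same values, 78.6, 72.7 and 77.6. Of the laminins, Lamc1 stood at 92.0, 76.8 and 88.2, and Lama1, Lama3 and Lama4 had no promoter peak. Itgb6, without a promoter peak, was near 12. Of 24 actin cytoskeleton genes 21 had one, with Myh9, a non-muscle myosin, at 98.7, 97.8 and 99.1 and Zyx, a focal adhesion protein, at 95.7, 98.3 and 98.8. Tpm2, Myh10 and Myl9 had none.

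The letters of 14 motifs were counted in windows of 500 bp around the summits. At distal summits AP-1 was found in 26.4, 27.4 and 26.1% of the windows in replicates 1, 2 and 3 (mean 26.6% ± 0.666, SD, n = 3), against 14.3% of all 500 bp tiles of the genome and 8.59% of promoter windows. At least 2 matches were in 4.44% of the windows. Distal regions called in 1 library held AP-1 in 24.2%. ETS was found in 3.33% ± 0.0503 against 1.41% of tiles, and in 16.5% of promoter windows. TEAD was found in 29.9% ± 0.317 against 25.2%, RUNX in 12.4% ± 0.434 against 11.4% and GRHL in 7.52% ± 0.0643 against 7.89%. FOX (TGTTTAC) stood at 9.29% against 7.38% and the letters AGATAA of the GATA factors at 25.0% against 30.0%. The KLF/SP GC box stood at 11.8% against 4.58%, and at 64.5% in promoter windows. TFAP2 (GCCNNNGGC) stood at 14.6% against 6.54% of tiles and the CTCF core (AGGGGGC) at 7.06% against 3.87%. The windows differ in base composition, with a median GC content of 47.3% in distal windows, 61.6% in promoter windows and 41.6% in tiles, and its part in these shares was not tested.

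Around the summits of distal regions the AP-1 letters formed a pair of maxima on either side. They were present at 0.934 matches per kb in the 100 bp centred 250 bp to the left of the summit and at 0.890 per kb 250 bp to the right, and fell to 0.404 per kb in the 100 bp on either side of the summit itself. The flanks held 0.329 per kb, and the ratio of the centre to the flanks was 2.08 ± 0.042 (SD, n = 3). TEAD, FOX and the GC box had the same form, with ratios of 1.28, 1.44 and 2.14 and maxima 250 bp from the summit. RUNX and CEBP (TTGCNNAA) also had maxima on either side and a minimum at the summit, although their ratios over the whole centre were 1.04 and 1.08. RUNX stood at 0.344 and 0.341 per kb 250 bp to either side and at 0.228 next to the summit, with 0.272 in the flanks, and CEBP at 0.527 and 0.540, 0.402 and 0.439. GRHL had a ratio of 0.978, with 0.152 per kb next to the summit and 0.164 in the flanks. The E-box CAGGTG had the opposite form, with 0.853 per kb next to the summit against 0.804 in the flanks and 0.769 over the whole centre. Of the AP-1 matches, 1.62% shared bases with the E-box, the motif that overlapped them most, whereas 32.4% of the NFY matches shared bases with NF1 letters. GATA and NFY (GCCAAT) had ratios of 0.994 and 0.9904, with a minimum at the summit as well. GATA reached 0.710 per kb at -350 bp and fell to 0.542 next to the summit, with 0.622 in the flanks, and NFY reached 0.343 at 350 bp and fell to 0.285, with 0.312. The CTCF core (1.26), the NF1 letters TTGGCA (1.16), TFAP2 (1.57) and ETS (1.74) had ratios above 1. A maximum at the summit was not particular to the E-box, since TFAP2 and the CTCF core had one as well. TFAP2 stood at 0.3834 per kb next to the summit against 0.217 in the flanks, and the CTCF core at 0.1625 against 0.1204. ETS reached 0.0875 per kb at -150 bp and stood at 0.0593 next to the summit, with 0.0408 in the flanks.

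**Figure D5:**
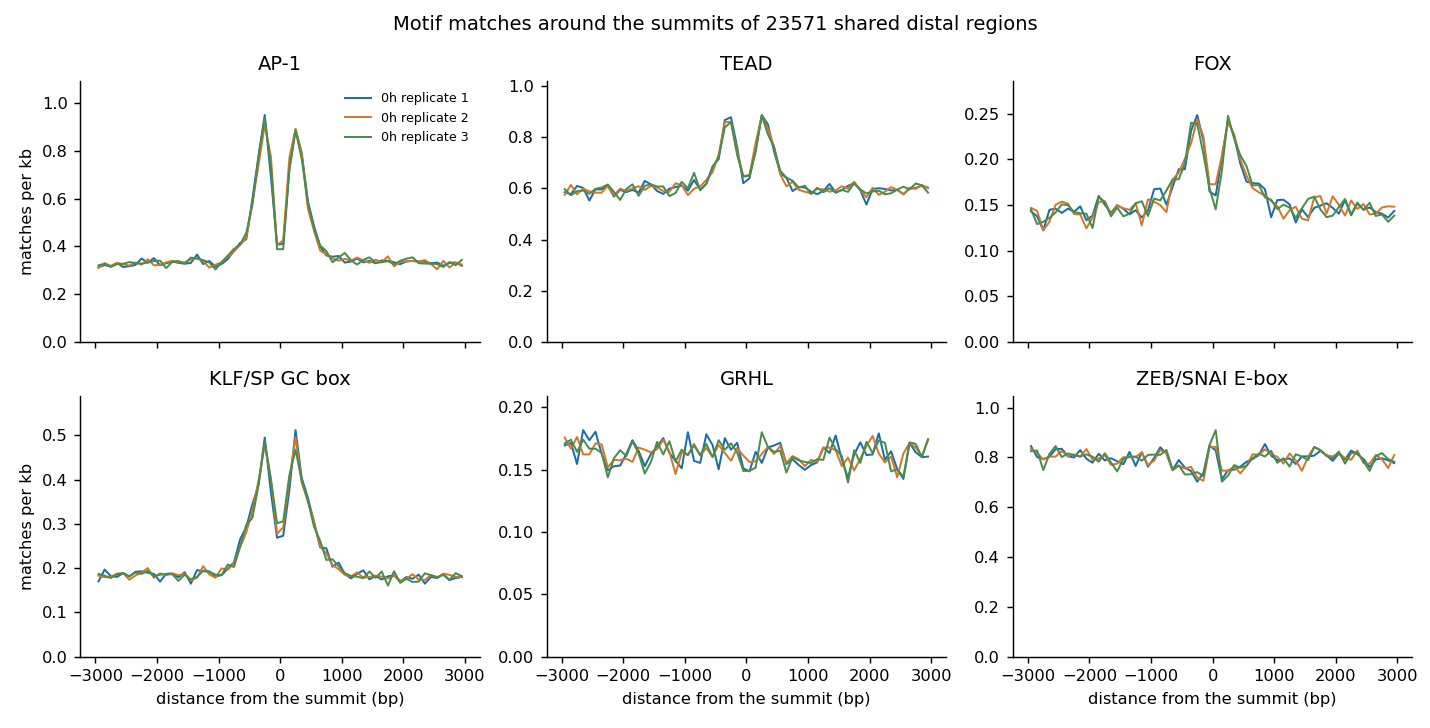
Matches per kb in bins of 100 bp, by distance from the summit in bp, around the summits of 23571 shared distal regions in each 0h library. AP-1, TEAD, FOX and the KLF/SP GC box have maxima on either side of the summit and a minimum at it, with AP-1 reaching 0.934 per kb, while GRHL stays nearer to its flanks (0.152 beside 0.164 per kb) and the E-box has a small maximum at the summit.

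The letters differed in how they followed the rank of a region. AP-1 was in 26.4% ± 0.964 of the windows in the lowest decile of distal regions by -log10 p, 27.4% ± 0.712 in the fifth and 23.4% ± 0.161 in the highest, each the mean of 3 libraries. The GC box was in 8.37, 9.53 and 23.5% of the same windows and ETS in 2.77, 2.80 and 5.84%. FOX took the other direction, at 11.04, 10.08 and 6.887%, as did RUNX, at 14.05, 13.68 and 10.76%, and GRHL, at 8.06, 7.58 and 6.87%. CEBP, at 18.96, 20.82 and 16.32%, was lowest in the highest decile, and TEAD changed little, at 30.69, 30.32 and 29.35%. The part of base composition in these shares was not tested. Ranked by covered bases, the same deciles held the GC box in 12.1, 12.02 and 12.4%, ETS in 3.24, 4.02 and 3.42% and AP-1 in 25.3, 24.9 and 26.4%, so that the changes of these 3 with -log10 p were not seen with width, while FOX stood at 10.02, 9.04 and 8.09%. Windows with and without AP-1 held TEAD in 30.9 and 29.5%, RUNX in 12.6 and 12.4%, and the GC box in 9.31 and 12.7%. Over the whole region, 9556 of 23571 distal regions held AP-1, and 19 of the 44 nearest to Myc, 17 of the 37 nearest to Klf6, 9 of the 22 nearest to Runx1, 5 of 16 for Tgfbr2, 3 of 9 for Cdh1 and 3 of 7 for Grhl2.

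Promoters with and without a shared region also differed in their letters. In the 200 bp upstream of the gene start, the GC box was found for 55.7% of 10780 genes with a shared promoter region and 21.5% of 11565 genes without, and ETS for 13.3 and 2.24%. NFY stood at 16.89 and 10.23%, TFAP2 at 16.93 and 8.949% and the CTCF core at 12.75 and 6.719%. The order was the other way round for GATA, at 3.803 and 9.927%, for AP-1, at 3.36 and 6.15%, for the E-box, at 11.5 and 15.8%, and for TEAD, at 7.87 and 10.0%. RUNX, GRHL, FOX, CEBP and the NF1 letters were also less frequent with a shared region. These shares are over genes of 1 genome and are given without a test. The part of base composition in them was not tested either.

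Most of the untreated landscape was called again in the treated libraries, which took no part in the choice. The share of shared regions with a peak was 92.9, 93.5 and 97.7% in the 4h group, 85.8, 89.7 and 91.2% in the 24h group, 93.0, 93.6 and 96.1% with 4h of TGF-β after ERKi and 90.5, 87.1 and 93.3% with 24h after ERKi. All 12 treated libraries called 74.9% of the regions, 91.9% of those over promoters and 65.0% of the distal ones. The share rose with the rank at 0h, from 20.9% in the lowest decile by mean percentile to 82.6% in the fifth and 99.97% in the highest, and promoter-overlapping regions rose from 10.0 to 88.0% over the same range. Covered width rose with them, from a median of 332 to 1215 bp. Of the 44 regions near Myc, 29 were called in all 12 treated libraries, as were 30 of 38 near Glis3, 14 of 27 near Shroom3 and 11 of 27 near Ankrd55.

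No treated library had a peak in 87 shared regions, of which 82 were distal. They were narrow and of low rank, with a median of 298 covered bp, a median percentile of 21.0 and a highest of 48.8. The 3 highest lay near Rpl10-ps3, Dtnb and Wwox. The Dtnb region, at chr12:3571799-3572204, had fold enrichments of 2.74, 3.37 and 3.39, and the Wwox region, at chr8:117065229-117066113, 5.84, 6.10 and 5.22.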

How the data were processed

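H3K27ac ChIP-seq peak lists of 15 NMuMG libraries were used, 3 of them untreated. Per the study's methods and the submitters' processing notes, the authors mapped the reads with bowtie to the mm9 genome and ran MACS2 library by library, both at default settings, under which bowtie keeps 1 alignment of a read that matches several places. The control used at peak calling is not given in the sources used here. The deposited lists give, per peak, the fold enrichment (a ratio of the summit pileup to the local background), -log10 p and -log10 q, and a score that the authors' caller derived from -log10 q and that was not used. No normalization between libraries was applied, so peaks were ranked within each list by -log10 p. Input and RNA samples were not analysed here.

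Peaks of the 3 lists that overlapped by at least 1 bp were merged, and regions with a peak from each list were kept. Start sites, classes of the genome and nearest protein-coding genes were taken from GENCODE vM1 on NCBIM37 (mm9), and sequences from that assembly. Fragments at the summit (pileup) and the local background of each peak were worked out from its fold enrichment together with its p value, which failed for 6, 0 and 1 peaks at a tolerance of 0.005. Of 365 entries in 19 gene lists, 360 matched the annotation, and Tfap2a, Tfap2c, Spi1, Map2 and Ajuba were not analysed here. A few members of the lists are not reported here by name. Motifs (14) were searched as consensus letters on both strands. No test was run, since the calls choose the regions and there is no contrast. The members and the gene lists were chosen with earlier results of these data known. Genes are named as the nearest to the 10 highest regions by -log10 p and by covered bases, for all and for distal regions, as the 10 nearest to most distal regions, or as members of the lists. The steps were tested on simulated data. Alternatives tried were stricter lists (-log10 q from 10 upwards, or at least 5-fold enrichment), the 20000 highest peaks of each list, other merging, overlap, promoter and window sizes, chromosomes 1 to 19 and X, ranks by fold and pileup, and each library left out. Python 3.11.15, NumPy 2.4.6, pandas 2.3.3, SciPy 1.17.1, matplotlib 3.10.9 and samtools 1.23.1 were used.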

Additional observations from a re-analysis of the deposited data

How the results depend on the processing

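The 3 libraries and the unknown depth limit the precision, ranks by -log10 p follow depth and local background as well as enrichment, and the nearest gene need not be the target. No paired analysis was possible because the results come from no test and a single condition is described. Of 88 values under alternatives for the 8 main results, 53 moved by less than the spread between libraries, or by less than 1.5 times for counts. The cause of the other changes was not tested, beyond the fewer peaks that stricter lists leave.

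With -log10 q of at least 10, the 20000 highest peaks and at least 5-fold enrichment, in this order, the shared regions numbered 24089, 15505 and 16518, the share of summits in promoters was 28.03, 34.22 and 30.1%, the median width 968, 1055 and 1001 bp, the median percentile in the library left out 98.2, 97.1 and 97.4, and the share called in treated libraries 98.6, 99.8 and 98.6% (92.0% in the report). The mean rho of ranks was 0.865 and 0.818 with the first pair of lists and AP-1 was in 29.3% of distal windows with the last. Merging within 1000 bp gave 18.4% of summits in promoters, a width of 1129 bp, a rho of 0.921 and AP-1 in 28.3%. When each library had to cover 50% of a region or more, 24.7% of summits were in promoters, and promoters widened to 2500 bp gave 42.4%. Windows of 200 and 1000 bp held AP-1 in 7.45 and 48.6%. The rho by pileup was 0.930, and the percentile in the library left out was 98.8 by fold enrichment. Leaving out each library in turn gave between 39717 and 43017 regions, 19.9 to 22.1% in promoters, widths of 620 to 756 bp, rho of 0.881 to 0.904, percentiles of 98.8 to 99.0, AP-1 in 25.9 to 26.7% and 87.4 to 90.2% in treated libraries. The count of genes with a shared promoter region stayed between 9174 and 11420 under all alternatives, and between 10728 and 10892 with a library left out. Without the 10 stretches of 1 Mb, an alternative added after the data were seen, the percentile was 98.7, the other 7 results moved by less than the spread, and 4 of the 10 highest regions stayed among the 10. Distal counts per gene were less stable, with Myc at 29, 20 and 9 and Klf6 at 18, 3 and 4 under the 3 stricter lists, and Glis3 at 0 without those stretches, in which it lies. Of the 10 widest regions, 0 stayed with at least 5-fold enrichment, 1 with merging, 5 with the 20000 highest peaks and 3 without replicate 1.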
